A study of Mus musculus with 9 samples.

Results

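Genes of the skeletal muscle sarcomere, its calcium system and its energy supply, 42 in all, were followed across 9 libraries of mouse brown adipose tissue. The 42 genes were taken by exact symbol from the 24356 gene symbols of the deposited tables, and all 42 were above 0 FPKM (fragments scaled to transcript length and to library size) in each of the 9 libraries. The mice were GHRH-KO animals, which carry a targeted disruption of the gene for growth hormone releasing hormone, and wild-type (WT) littermates of a mixed C57BL6 and 129SV background that ate chow ad libitum. The labels give 2 KO females, 2 KO males, 3 WT females and 2 WT males, with 1 library of brown fat RNA per animal number. The age of the mice and the fat depot that was dissected are not given in the sources used here, so neither can be set beside the values. The comparison asks how the level and the fibre type makeup of these transcripts differed between genotype labels, between the sexes and among single libraries.

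Skeletal muscle fibres contract when myosin heads of the thick filament pull on actin of the thin filament, after calcium has been released through the ryanodine receptor and has bound troponin C. Fast and slow fibres use different genes for the same part, so that most myosin chains and each of the troponin subunits come as a fast and a slow isoform. Brown adipocytes and skeletal muscle share a developmental origin, but the brown adipocyte is a cell of lipid droplets and mitochondria and does not build a sarcomere. The fast list used here (14 members) and the slow list (6 members) are fibre type markers, and the remaining 22 members are made by both kinds of fibre or mark one less strictly.

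The stretches of sequence directly before 4 of these genes are shown to place the members by their regulatory DNA, since muscle genes are known for E-boxes (CANNTG), the sites that myogenic regulators such as MyoD bind. *Acta1* encodes the skeletal actin and stands for both fibre types, *Myh4* for the fast list, and *Myh7* and *Tnnc1* for the slow list. Capitals mark each CANNTG, and each sequence ends at the base before the RefSeq start of the gene in build GRCm38.p6, read 5′ to 3′ on the strand of the gene. The *Myh4* stretch is shorter because it was cut at an exon of the antisense transcript *Myhas*.
*Acta1*, chr8:123894776-123895025, minus strand: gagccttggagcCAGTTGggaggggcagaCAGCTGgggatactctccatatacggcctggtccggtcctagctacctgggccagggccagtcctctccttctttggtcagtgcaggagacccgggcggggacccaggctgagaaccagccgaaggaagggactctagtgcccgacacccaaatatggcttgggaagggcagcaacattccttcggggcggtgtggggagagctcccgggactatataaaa
*Myh4*, chr11:67237574-67237811, plus strand: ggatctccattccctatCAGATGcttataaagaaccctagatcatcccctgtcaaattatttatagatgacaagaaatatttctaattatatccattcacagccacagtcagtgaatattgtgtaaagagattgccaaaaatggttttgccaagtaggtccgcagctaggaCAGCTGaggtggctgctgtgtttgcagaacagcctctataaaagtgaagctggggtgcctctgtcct
*Myh7*, chr14:54994627-54994876, minus strand: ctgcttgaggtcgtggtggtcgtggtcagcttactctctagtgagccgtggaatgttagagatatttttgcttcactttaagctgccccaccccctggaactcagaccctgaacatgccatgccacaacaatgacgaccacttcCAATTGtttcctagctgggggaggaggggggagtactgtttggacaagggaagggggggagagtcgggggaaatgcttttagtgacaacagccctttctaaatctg
*Tnnc1*, chr14:31208062-31208311, plus strand: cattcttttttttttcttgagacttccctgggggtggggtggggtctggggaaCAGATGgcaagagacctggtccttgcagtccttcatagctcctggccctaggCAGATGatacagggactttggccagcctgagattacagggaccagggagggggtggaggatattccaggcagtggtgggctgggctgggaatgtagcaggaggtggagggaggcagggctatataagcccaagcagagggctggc

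The *Acta1* stretch holds 2 of these hexamers, at -238 and -221 relative to the start, and the second has the letters CAGCTG. In the *Myh4* stretch there are also 2, and the one at -67 reads CAGCTG. These offsets are from the RefSeq start. The GENCODE starts of *Myh4* (chr11:67238029) and *Acta1* (chr8:123894751) lie further downstream. The *Myh7* stretch holds 1 CANNTG and the *Tnnc1* stretch holds 2, none of them CAGCTG. Of the 42 members, 31 had a RefSeq upstream sequence, and in the 250 bases before the start CANNTG was present in 27 of the 31 (87.1%) against 69.3% of 27025 genes. CAGCTG, which is 1 form of CANNTG and reads the same on both strands, was present in 16 of the 31 (51.61%) against 14.72% of all genes. It was present for 5 of the 10 fast list genes with a sequence and for 2 of the 6 slow list genes. All motifs were searched on both strands, and a match is only a match of letters.

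The targeted gene was read first, as a check of the labels. *Ghrh* was listed at 0.846, 0.233, 0.799 and 0.470 FPKM in KO female 1, KO female 2, KO male 1 and KO male 2, and at 0 in each of the 5 libraries labelled WT. The transcript was thus listed only in libraries labelled KO, which is not what loss of the transcript in KO would give. With 0 in WT there was no level from which a loss could be read, so the WT values cannot check the labels. Libraries are therefore called by their labels throughout, and each direction below is that of the label. *Igf1*, a gene that growth hormone induces, was read after these values were seen, and its levels were 0.713, 0.892, 2.46 and 1.28 FPKM in KO and 5.66, 4.75, 2.68, 2.13 and 8.80 FPKM in WT. Its log2 difference was -1.84 with an SE of 0.45 and did not pass (limma adjusted p 0.0661). Both KO females were below all 3 WT females, and the males overlapped. Whether exchanged labels, a residual transcript of the disrupted gene or another cause lay behind the *Ghrh* values was not tested. The brown adipocyte marker *Ucp1*, the uncoupling protein of brown fat, was abundant in all libraries. It was at 2504 ± 350 FPKM (mean ± SD, n = 4) in the libraries labelled KO. In those labelled WT it was at 1820 ± 384 FPKM (n = 5). Another brown adipocyte marker, *Prdm16*, was low, at 2.39 ± 0.458 FPKM in KO and 3.30 ± 1.38 FPKM in WT. KO male 1 stood apart from the other libraries across all genes, with Spearman correlations of 0.924 to 0.934 with the others. Total FPKM per library ran from 380558 to 443569, and the relative depth estimated from low values from 0.917 to 1.14 of that of WT female 1. Fragment numbers are unknown, so no counting error can be given for single values.

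Sarcomere and calcium transcripts were more abundant in every library labelled KO than in any library labelled WT when summed over the 42 members. The sum was 8829, 4499, 16599 and 8894 FPKM in KO female 1, KO female 2, KO male 1 and KO male 2, and 3332, 2231, 1718, 3184 and 662 FPKM in WT female 1, WT female 2, WT female 3, WT male 1 and WT male 2. Lists of values below keep this order of libraries. KO male 1 was the highest and WT male 2 the lowest, 25.1-fold apart, and KO female 2 was nearest to the libraries labelled WT. The means were 9705 ± 5035 FPKM (SD, n = 4) and 2225 ± 1101 FPKM (SD, n = 5), a ratio of 4.36. Without KO male 1 the KO mean was 7407 ± 2519 FPKM (n = 3). As a share of all FPKM in a library the members made up 2.16, 1.08, 3.87 and 2.01% in the libraries labelled KO and 0.803, 0.586, 0.419, 0.787 and 0.160% in those labelled WT. In bulk tissue, more muscle cells in the sample, more muscle RNA per cell and transcription of these genes in cells of the fat cannot be told apart. The summed level of 9 brown adipocyte markers overlapped between labels over the same libraries, at 6393 to 8274 FPKM in KO and 6016 to 7834 FPKM in WT. Within each sex the sum did not overlap. It was 8086 and 8274 FPKM in KO females against 6547 to 7834 FPKM in WT females. In males it was 6393 and 6474 FPKM in KO against 6016 and 6345 FPKM in WT. Of all tested genes, 13.8% in females and 10.8% in males had each KO library above each WT library. Among the 9 markers the log2 difference was positive for 7 and negative for 2 in females, and for 4 and 5 in males.

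**Figure D1:**
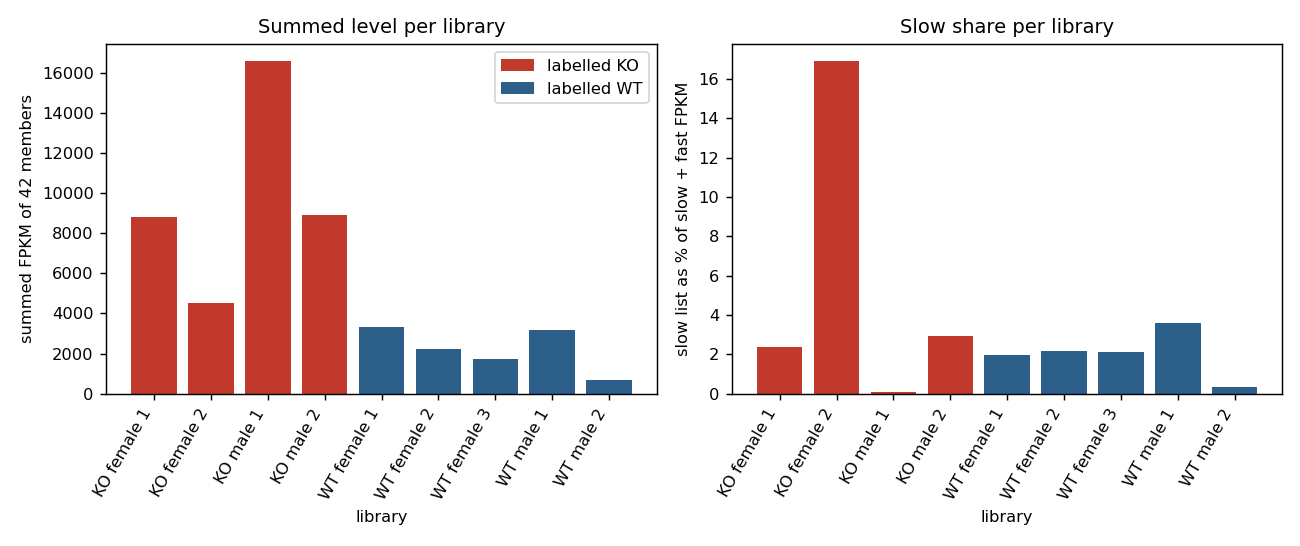
Summed level of the 42 genes (left, FPKM) and slow list as a percentage of the fast and slow lists together (right) in each of the 9 libraries, with 1 bar per library coloured by genotype label. The libraries labelled KO reach 4499 to 16599 FPKM and those labelled WT 662 to 3332 FPKM, while the slow share is 16.9% in KO female 2 and at most 3.58% in the other libraries.

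Across the members, the difference by genotype label averaged over the sexes was positive for all 42 genes, with a median log2 difference of 2.28 (KO minus WT) beside a median of -0.07 over all 14675 genes tested. In limma with Benjamini-Hochberg adjustment over those genes, 10 members were higher in libraries labelled KO (adjusted p 0.0320 to 0.0499), where 1.43% of all genes were called higher and 2.17% lower, and no member was called lower. These were *Jph1*, *Xirp2*, *Des*, *Myot*, *Acta1*, *Myh1*, *Actn2*, *Cacna1s*, *Ampd1* and *Mylpf*. A further 25 members had an adjusted p between 0.05 and 0.1, and 37 of the 42 had an unadjusted p under 0.05 with the higher level in KO, beside 5.99% of all genes. For 26 members each library labelled KO was above each library labelled WT, a pattern that 3.03% of all tested genes showed, and for none was each KO library below each WT library (6.04% of all genes). Without KO male 1 this count was 32 and took in all 6 slow genes (3.98% of all genes), without KO female 2 it was 35 (4.5%), without WT male 1 it was 32 (3.96%) and without WT male 2 it was 26 (3.55%). The number of calls rested on single libraries. It was 38 without WT male 1 (816 of all genes called in either direction), 21 without KO male 2 (1105 of all genes) and 1 without KO male 1 (442 of all genes). It was 0 without KO female 1, KO female 2, WT female 1, WT female 2, WT female 3 or WT male 2, where 8 to 37 of all genes were called.

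**Figure D2:**
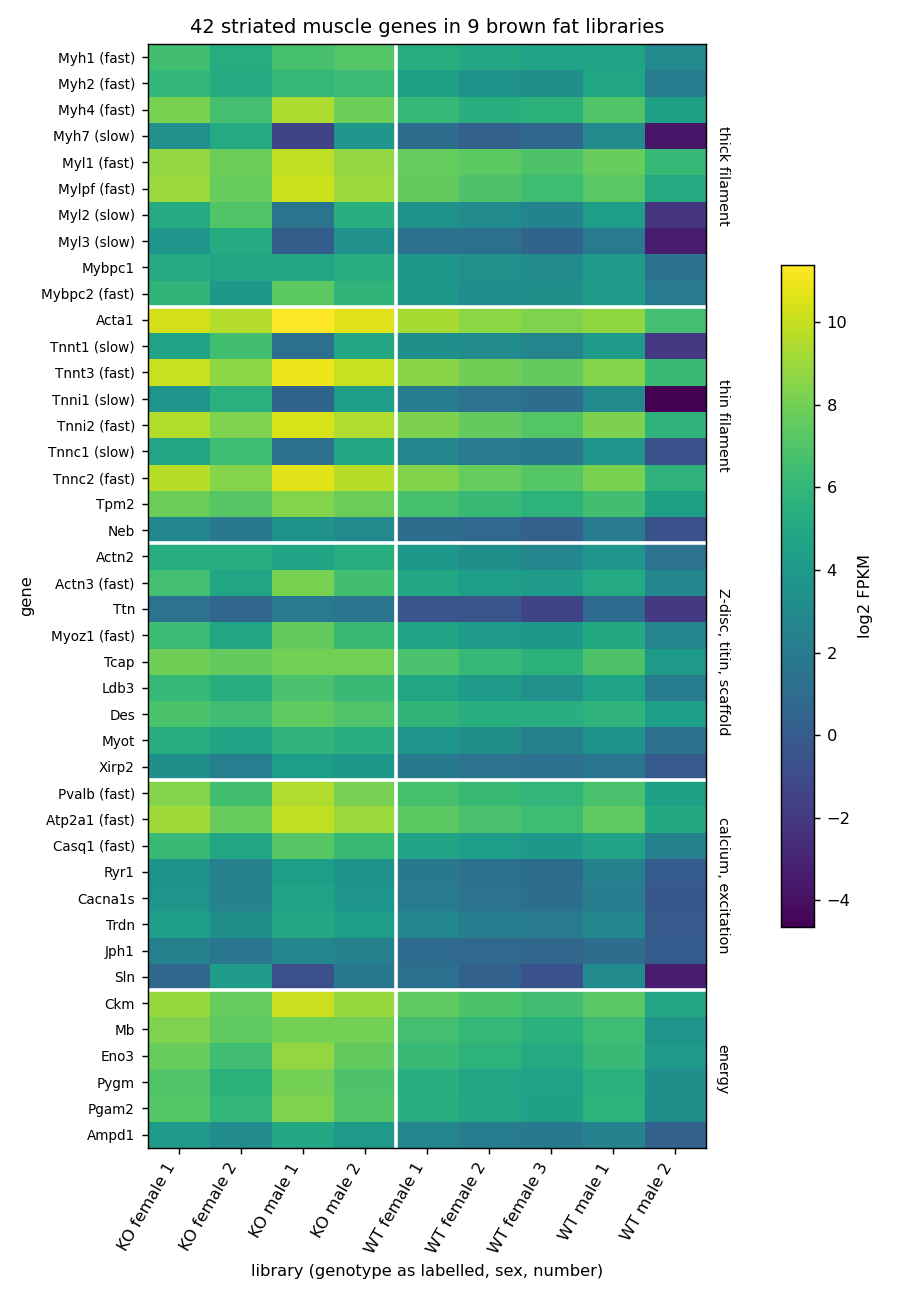
Level of each of the 42 genes (rows, grouped by role, with the fast and slow lists marked) in each of the 9 libraries (columns), as log2 FPKM. WT male 2 is the lowest library for all 42 genes, and the 6 slow genes are low in KO male 1 although most other genes reach their highest level there.

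Thick filament genes showed 2 calls among 10 members, beside 1.43% of all genes called higher, with log2 differences from 1.75 to 2.97 (median 2.32). *Myh4*, the fastest myosin heavy chain, was at 294, 102, 696 and 231 FPKM in KO and 69.6, 42.8, 51.5, 131 and 23.2 FPKM in WT, where KO and WT stand for the genotype labels. KO female 2 lay below WT male 1, so the groups overlapped, and the log2 difference of 2.28 (SE 0.59) did not pass (limma adjusted p 0.0753). *Myh1*, another fast heavy chain, was at 91.0, 39.1, 106 and 136 FPKM in KO and 40.9, 32.7, 23.7, 26.2 and 7.96 FPKM in WT. It was 3.95-fold higher in KO (log2 difference 1.98, SE 0.40, limma adjusted p 0.0436), although KO female 2 was below WT female 1. *Myh2*, the fast heavy chain of oxidative fibres, was at 61.8, 36.9, 65.8 and 80.1 FPKM in KO and 22.6, 12.1, 9.74, 27.2 and 4.52 FPKM in WT. Its groups did not overlap, with a log2 difference of 2.25 (SE 0.52) and a limma adjusted p of 0.0597.

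The regulatory light chain of fast myosin, *Mylpf*, was at 514, 207, 1137 and 511 FPKM in KO and 182, 121, 84.7, 156 and 38.0 FPKM in WT. Each KO library was above each WT library, and the gene was 5.12-fold higher (log2 difference 2.36, SE 0.50, limma adjusted p 0.0499). Its slow counterpart *Myl2* was at 38.1, 129, 2.93 and 45.3 FPKM in KO and 12.3, 8.55, 5.96, 19.6 and 0.222 FPKM in WT, and the slow essential light chain *Myl3* at 13.6, 36.6, 1.06 and 10.8 FPKM and 2.61, 2.45, 1.37, 3.73 and 0.0950 FPKM. In both slow light chains KO male 1 lay below each of the WT libraries except WT male 2, and KO female 2 was the highest. The log2 differences of 2.75 (SE 1.36) and 2.97 (SE 1.13) are among the 3 largest of the members but did not pass (limma adjusted p 0.313 and 0.193). The slow heavy chain *Myh7* was at 10.9, 35.5, 0.394 and 14.0 FPKM in KO and 2.21, 1.27, 1.61, 7.83 and 0.0778 FPKM in WT, again with KO male 1 low and WT male 2 lowest, and its log2 difference of 2.58 had an SE of 1.49 (limma adjusted p 0.398).

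Among the 9 thin filament genes 1 passed, beside 1.43% of all genes called higher. The log2 differences ran from 1.96 to 3.14 (median 2.29). *Acta1* had the highest mean level of the members, at 1298, 784, 2693 and 1614 FPKM in KO and 618, 416, 318, 432 and 96.3 FPKM in WT. The groups did not overlap, and the gene was 4.88-fold higher in KO (log2 difference 2.29, SE 0.45, limma adjusted p 0.0426). Ranked among all genes within a library it was 8th in KO male 1 and 597th in WT male 2.

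The fast troponins came next to *Acta1* in mean level. Troponin T, which anchors the complex to tropomyosin, was at 1073, 414, 2011 and 1066 FPKM in KO and 374, 247, 184, 359 and 73.4 FPKM in WT for the fast gene *Tnnt3*. The inhibitory subunit of fast fibres, *Tnni2*, was at 753, 319, 1363 and 709.6 FPKM and 299.7, 184, 138, 303 and 55.6 FPKM, and the calcium-binding subunit *Tnnc2* at 834, 361, 1625 and 804 FPKM and 323, 192, 143, 282 and 55.1 FPKM. For each of these 3 genes all KO libraries were above all WT libraries, and none passed (log2 differences 2.27, 2.12 and 2.30, with limma adjusted p of 0.0585, 0.0727 and 0.0599).

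The slow troponins were spread over a far wider range. *Tnnt1* was at 26.4, 94.1, 2.41 and 33.1 FPKM in KO and 10.1, 8.50, 6.42, 17.9 and 0.252 FPKM in WT, and *Tnnc1*, which cardiac muscle also uses, at 27.7, 85.5, 2.48 and 32.0 FPKM and 6.50, 4.16, 3.45, 13.1 and 0.644 FPKM. *Tnni1* was at 12.7, 46.8, 1.45 and 19.2 FPKM in KO and 4.24, 2.71, 2.17, 8.04 and 0.0400 FPKM in WT. For each of the 3 genes KO female 2 was the highest library, KO male 1 lay among the WT libraries and WT male 2 was the lowest. *Tnni1* had the largest log2 difference of the 42 members, 3.14 with an SE of 1.52, and did not pass (limma adjusted p 0.303).

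**Figure D3:**
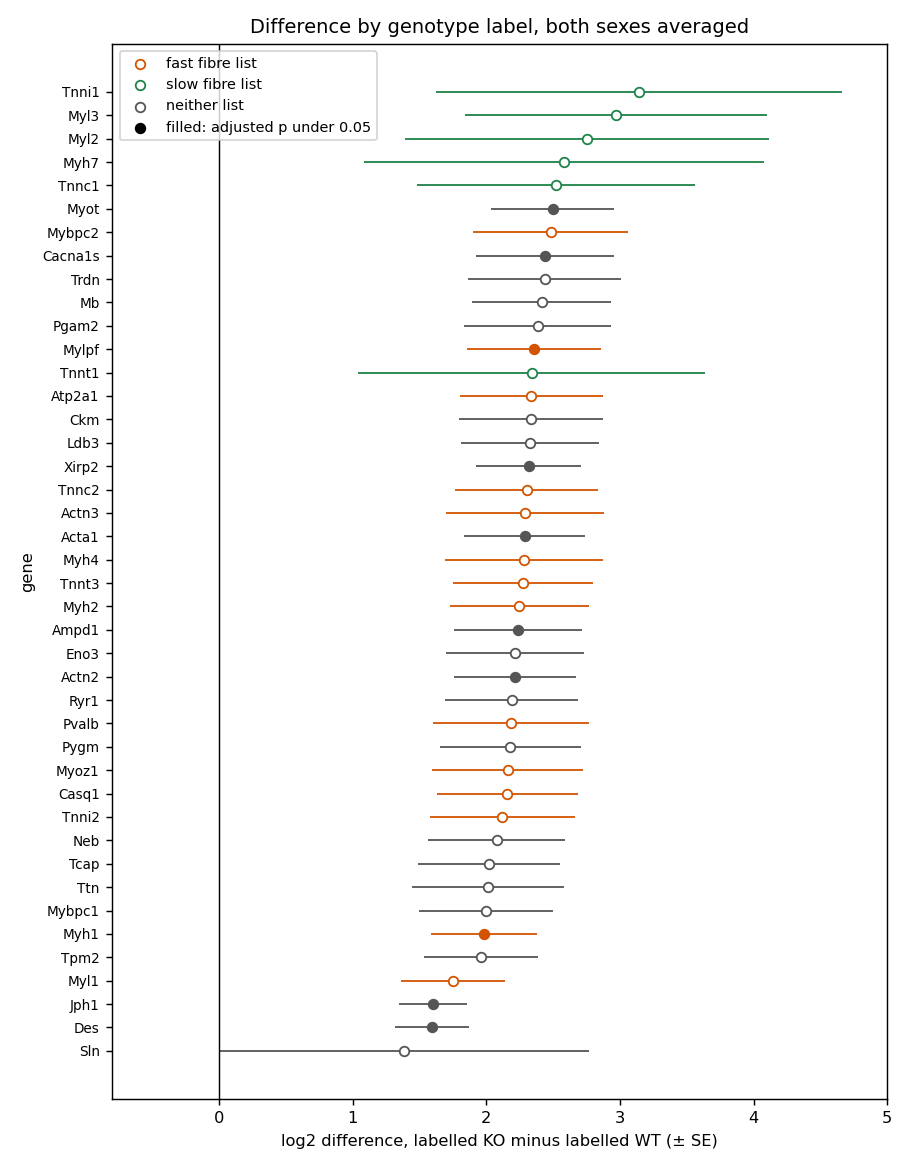
Log2 difference of each of the 42 genes by genotype label, KO minus WT averaged over the sexes (points, with bars of 1 SE either side), with fast, slow and remaining genes in different colours and filled points for a limma adjusted p under 0.05. All points lie above 0, and the slow genes and *Sln* have the widest bars.

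Genes of the Z-disc, the plate that joins neighbouring sarcomeres, and its scaffold gave 4 calls among 9 members, beside 1.43% of all genes. Their median log2 difference was 2.21 (1.59 to 2.49). *Actn2*, which crosslinks actin at the Z-disc of both fibre types, was at 38.4, 38.7, 26.6 and 45.1 FPKM in KO and 14.8, 9.86, 6.99, 13.6 and 2.81 FPKM in WT. KO male 1, the highest library for 30 of the members, was the lowest of the KO libraries here, yet above each WT library, and the gene was 4.64-fold higher (log2 difference 2.21, SE 0.46, limma adjusted p 0.0459). *Myot*, a Z-disc protein that binds alpha-actinin, was at 38.3, 26.0, 56.4 and 43.3 FPKM in KO and 13.1, 9.63, 5.37, 12.0 and 2.60 FPKM in WT, and *Xirp2*, an actin-binding repeat protein, at 10.02, 4.71, 20.5 and 14.9 FPKM and 3.65, 2.81, 2.30, 3.10 and 0.917 FPKM. Neither gene overlapped between labels, and they were 5.64-fold and 4.99-fold higher in KO (log2 differences 2.49 and 2.32, limma adjusted p 0.0380 and 0.0347).

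*Des*, the intermediate filament that ties Z-discs together, is also made by smooth muscle. It was at 114, 87.7, 181 and 126 FPKM in KO and 56.5, 43.4, 44.4, 55.7 and 21.5 FPKM in WT, with no overlap. It was 3.02-fold higher in KO, the second smallest difference of the members (log2 1.59, SE 0.28, limma adjusted p 0.0352). Titin (*Ttn*) and nebulin (*Neb*), the giant spring and ruler proteins, were low per length, at 2.84 ± 1.02 and 7.48 ± 3.34 FPKM in KO (mean ± SD, n = 4), and did not pass (limma adjusted p 0.0937 and 0.0668).

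In the calcium and excitation group 2 of 8 members passed (median log2 difference 2.19), beside 1.43% of all genes called higher. *Cacna1s*, the voltage sensor of the T-tubule, was at 12.7, 5.57, 25.8 and 13.5 FPKM in KO and 3.88, 2.71, 2.26, 4.27 and 0.809 FPKM in WT. Its groups did not overlap, and it was 5.42-fold higher in KO (log2 difference 2.44, SE 0.51, limma adjusted p 0.0488). *Jph1*, which holds the T-tubule against the sarcoplasmic reticulum, was at 5.33, 3.21, 6.50 and 4.99 FPKM in KO and 1.95, 1.78, 1.55, 2.10 and 1.02 FPKM in WT, 3.03-fold higher and with no overlap (log2 difference 1.60, SE 0.25). It had the lowest adjusted p of the members (0.0320 in limma).

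The release channel *Ryr1*, which *Cacna1s* opens, was at 11.6, 4.99, 21.4 and 12.0 FPKM in KO and 3.49, 2.55, 2.04, 5.00 and 0.998 FPKM in WT, and KO female 2 just overlapped WT male 1. *Atp2a1*, the calcium pump of fast fibres, was at 561, 202, 923 and 503 FPKM in KO and 166, 113, 86.4, 175 and 33.6 FPKM in WT, and did not overlap. *Pvalb*, the calcium buffer of fast fibres, was at 345, 94.4, 713 and 272 FPKM in KO and 105, 70.8, 60.8, 111 and 22.7 FPKM in WT. In *Pvalb* KO female 2 fell below both WT female 1 and WT male 1. None of the 3 passed, at limma adjusted p of 0.0582 for *Ryr1*, 0.0584 for *Atp2a1* and 0.0826 for *Pvalb*.

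*Sln*, sarcolipin, a small inhibitor and uncoupler of the calcium pump, had another highest library than the rest of its group. It was at 1.68, 17.9, 0.594 and 3.38 FPKM in KO and 2.34, 1.24, 0.658, 8.66 and 0.0968 FPKM in WT, highest in KO female 2 and WT male 1 and overlapping between labels. Its log2 difference was the smallest of the members, 1.39 with an SE of 1.38 (limma adjusted p 0.663), and it was -0.24 when WT male 2 was left out (limma adjusted p 0.954, the highest of 0.148 to 0.954 over its 20 alternative settings).

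The 6 energy genes had no overlap between labels in any member, beside 3.03% of all genes with each KO library above each WT library. Of the 6 genes 1 passed, beside 1.43% of all genes called higher. *Ckm*, the muscle creatine kinase, was at 475, 192, 1098 and 465 FPKM in KO and 172, 116, 87.4, 159 and 31.3 FPKM in WT. *Eno3*, the muscle enolase of glycolysis, was at 199, 87.3, 452 and 188 FPKM and 72.6, 52.9, 35.5, 74.4 and 16.2 FPKM. The log2 differences of 2.33 and 2.21 did not pass (limma adjusted p 0.0600 and 0.0609). *Mb*, the oxygen store of oxidative fibres, was at 313, 181, 263 and 261 FPKM in KO and 95.1, 66.0, 48.3, 83.7 and 12.8 FPKM in WT, with KO female 1 the highest library, and just missed the threshold (log2 difference 2.41, SE 0.52, limma adjusted p 0.0503). *Ampd1*, the AMP deaminase of muscle, was at 18.4, 8.37, 33.2 and 16.5 FPKM in KO and 6.62, 4.48, 3.59, 5.68 and 1.34 FPKM in WT and was 4.71-fold higher (log2 difference 2.24, SE 0.48, limma adjusted p 0.0498).

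Between labels, the mean slow share differed by less than the spread among libraries labelled KO. The slow list made up 2.39, 16.9, 0.104 and 2.96% of the summed FPKM of both lists in the libraries labelled KO and 1.99, 2.17, 2.13, 3.58 and 0.328% in those labelled WT. The share was highest in KO female 2 and lowest in KO male 1, and the WT libraries lay between them. With KO female 2 left out the mean share in KO was 1.82 ± 1.51% (SD, n = 3), against 5.59 ± 7.65% with it (n = 4) and 2.04 ± 1.16% in WT (n = 5). No slow list member passed by genotype label, and 2 of the 14 fast list members did (*Myh1* and *Mylpf*), beside 1.43% of all genes. The SE of the log2 difference ran from 1.04 to 1.52 in the slow list and from 0.39 to 0.59 in the fast list. That the 2 lists differ in response was not tested.

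Heavy chains had the same highest and the same lowest library. *Myh7* made up 2.38, 16.6, 0.0454 and 3.03% of the FPKM of *Myh1*, *Myh2*, *Myh4* and *Myh7* in KO and 1.63, 1.43, 1.86, 4.08 and 0.217% in WT. *Myh4* was the main heavy chain in all 9 libraries, with shares of 64.2, 47.9, 80.2 and 50.1% in KO and 51.5, 48.2, 59.5, 68.1 and 64.9% in WT. The slow share of troponin I was 12.8% in KO female 2, 0.107% in KO male 1 and lowest in WT male 2, at 0.0718%. For troponin C it was 19.1% in KO female 2 and lowest in KO male 1, at 0.153%, and for troponin T 18.5% and 0.120% in the same libraries. The slow share of the regulatory light chain, from *Myl2* and *Mylpf*, was 38.4% in KO female 2 and 0.257% in KO male 1. KO female 2 was the highest library for 7 members, the 6 slow genes and *Sln*, and KO male 1 for 30 members. The other 5 peaked in KO male 2 (*Actn2*, *Myh1*, *Myh2* and *Mybpc1*) or KO female 1 (*Mb*).

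When each gene was set against *Acta1* in the same library, the fast genes varied far less than the slow genes over the 9 libraries. Among the fast genes the relative range was narrowest in *Tnnc2*, 45.2% to 65.2% of *Acta1*, and *Tnnt3*, 52.8% to 83.1%. It was widest in *Mybpc2*, 1.91% to 6.18%. Over the 14 fast genes the largest ratio to *Acta1* was 1.44 to 3.23 times the smallest (median 2.16), and in 28 of the 41 members other than *Acta1* it was within 3-fold. *Ampd1* had the narrowest range, 1.02% to 1.42%. For the 6 slow genes the largest ratio was 118 to 310 times the smallest, and for *Sln* 103 times. No member had a ratio to *Acta1* that separated the KO from the WT libraries.

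**Figure D4:**
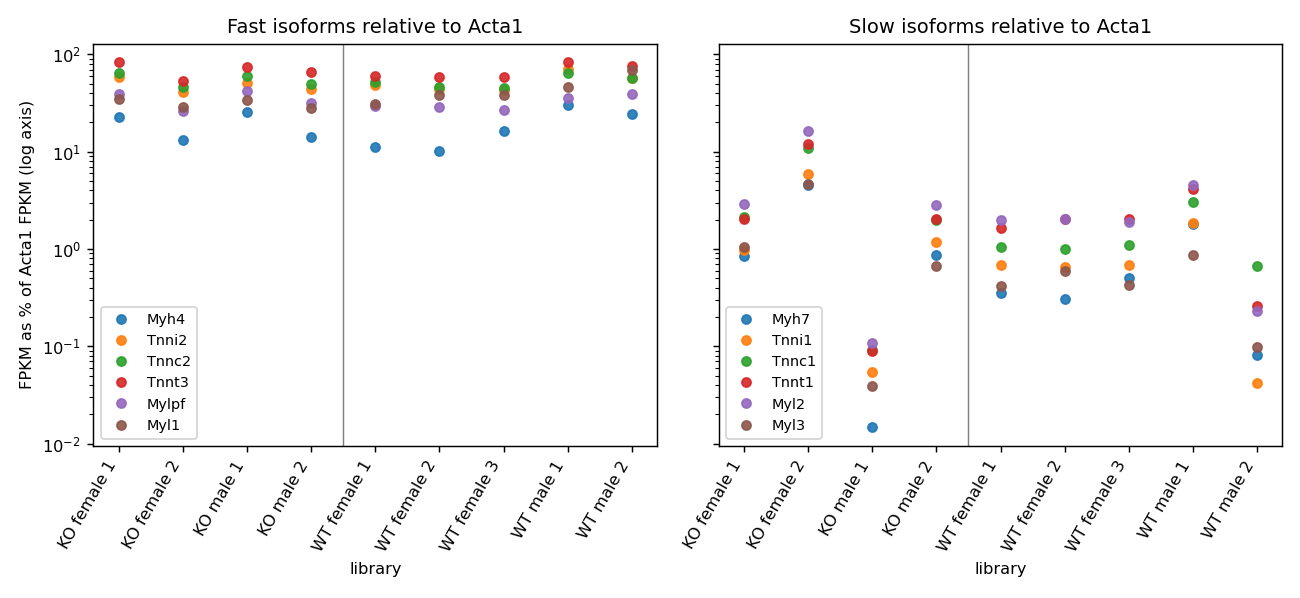
Level of 6 fast genes (left) and of their 6 slow counterparts (right) as a percentage of the *Acta1* FPKM of the same library, on a log axis, with 1 point per gene and library. The fast genes stay between 10.3% and 83.1% in all 9 libraries, while the slow genes span from 0.0146% (*Myh7* in KO male 1) to 16.5% (*Myl2* in KO female 2).

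A few genes outside the fast and slow lists departed from *Acta1* in 1 or 2 libraries. *Mb* was 9.78% of *Acta1* in KO male 1 and 13.3% to 24.1% in the other libraries. *Actn2* was 0.989% of *Acta1* in KO male 1, 4.93% in KO female 2 and 2.20% to 3.14% in the others. *Mybpc1* (1.16%) and *Tcap* (9.34%) were lowest in KO male 1 too, against at least 2.48% and 15.3% in the other libraries. *Des* was 22.3% of *Acta1* and *Jph1* 1.06% in WT male 2, the library with the least muscle transcript, against at most 14.0% and 0.489% in the other libraries.

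Within each sex the members lay in the same direction. In females the log2 difference by genotype label was positive for all 42 members (0.92 to 3.57, median 1.53), and 0 passed in limma, where 0.0204% of all genes were called higher. At an unadjusted p under 0.05, 9 members were higher in KO females beside 4.95% of all genes. In 38 members both KO females were above all 3 WT females (13.8% of all genes), the exceptions being *Actn3*, *Myh1*, *Pvalb* and *Sln*. In males the difference was positive for all 42 members (0.63 to 3.55, median 3.00), and 0 passed in limma, where 0% of all genes were called higher and 0.0136% lower. At an unadjusted p under 0.05, 35 members were higher in KO males beside 4.86% of all genes. In 35 members both KO males were above both WT males (10.8% of all genes), and the other 7 were the 6 slow genes and *Sln*. The 2 WT males differed 4.81-fold in summed level, and the count of members called in males was 31 without WT male 1, where 334 of all genes (2.28%) were called in either direction, and 13 without KO male 2, where 1293 (8.81%) were.

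The interaction of genotype and sex had a median log2 value of 1.497 over the members and was called in none by limma (lowest adjusted p 0.688), where 0% of all genes were called in either direction. At an unadjusted p under 0.05, 3 members had a larger difference in males, beside 1.98% of all genes. Between males and females averaged over genotype labels, 0 members passed in limma, where 0% of all genes were called higher and 0.0136% lower, and 0 had an unadjusted p under 0.05 (3.36% of all genes higher and 7.09% lower). In females, in the sex comparison and in the interaction, an ordinary linear model with the same terms also called 0 members, both with adjustment and at an unadjusted p under 0.01. In males that model called 0 with adjustment and 5 at an unadjusted p under 0.01, where 777 of the 14675 genes (5.29%) were called in either direction.

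Other genes of muscle were read beside the members. Of 55 further skeletal muscle genes 17 were higher and 0 lower in libraries labelled KO (limma adjusted p under 0.05), beside 1.43% and 2.17% of all genes, and 38 had each KO library above each WT library (3.03% of all genes). The lowest p belonged to *Ankrd23*, a titin-associated ankyrin repeat protein, at 60.5 ± 27.3 FPKM in KO and 8.59 ± 3.65 FPKM in WT (SD, n = 4 and 5; log2 difference 2.83, limma adjusted p 0.0285), then to *Xirp1* (log2 difference 2.42, adjusted p 0.0290) and *Cacna2d1* (1.29, adjusted p 0.0347). The list of myogenic regulators gave 4 calls among the 6 of its 10 genes that were above 0 in all 9 libraries. Among the 4 were *Myog* (log2 difference 3.33, limma adjusted p 0.0357), *Myod1* (2.79, adjusted p 0.0426) and *Mef2c* (1.04, adjusted p 0.0451). Their levels were low, with *Myod1* at 1.04 ± 0.536 FPKM in KO and 0.162 ± 0.0880 FPKM in WT.

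Developmental isoforms showed 2 calls among 4 tested, beside 1.43% of all genes called higher. The embryonic myosin *Myh3* (log2 difference 2.34, limma adjusted p 0.0431) and the perinatal myosin *Myh8* (2.36, adjusted p 0.0459) were higher in KO, and cardiac actin *Actc1* had a log2 difference of 2.59 (adjusted p 0.0811). In the neuromuscular junction list 0 of 8 tested passed in limma. At an unadjusted p under 0.05, 5 were higher in KO, beside 5.99% of all genes. Among the 5 were *Chrna1* (2.44, adjusted p 0.0648), *Colq* (4.03, adjusted p 0.0794) and *Rapsn* (1.86, adjusted p 0.0935).

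Markers of other cell types that the tissue could hold were read beside these. Of all genes, 1.43% were called higher and 2.17% lower in KO at a limma adjusted p under 0.05. Of the 9 cardiac list genes, 2 were listed at 0 in all 9 libraries, *Myl7* and *Nppb*. The highest cardiac list value was 2.29 FPKM (*Myh6*), and the summed cardiac list was at 2.32 to 5.85 FPKM in KO and 0.933 to 1.20 FPKM in WT, without overlap. Of the 3 cardiac genes tested 0 passed in limma (*Myh6* log2 difference 2.79, adjusted p 0.166, *Pln* -0.46 and *Ryr2* -0.17). At an unadjusted p under 0.05, 1 of the 3 was higher in KO, beside 5.99% of all genes. Among 9 smooth muscle genes *Synpo2*, which striated muscle also makes, was higher in KO (log2 difference 1.24, limma adjusted p 0.0185), *Myh11* was lower (-0.65, adjusted p 0.0352), and *Cnn1* was at -0.95 (adjusted p 0.0784). The summed smooth muscle list was at 46.2 to 67.3 FPKM in KO and 65.1 to 90.2 FPKM in WT. Of 9 brown adipocyte genes 0 passed in limma (*Ucp1* log2 difference 0.52, adjusted p 0.0739, *Prdm16* -0.49 and *Elovl3* 1.42). At an unadjusted p under 0.05, 3 of the 9 were higher in KO and 2 lower, beside 879 and 2082 of the 14675 genes. At that threshold 1 smooth muscle gene was higher and 5 were lower. Of the white adipocyte genes tested, 0 were higher and 3 lower. Of 6 white adipocyte genes tested 1 was lower in KO, *Lep* (-3.21, limma adjusted p 0.0426), with *Nnat* at -3.20 (adjusted p 0.0983) and *Npr3* at -1.06 (adjusted p 0.216), and the summed list was at 39.2 to 95.7 FPKM in KO and 86.3 to 344 FPKM in WT. The part of any of these cell types in the differences of the members was not tested.

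**Figure D5:**
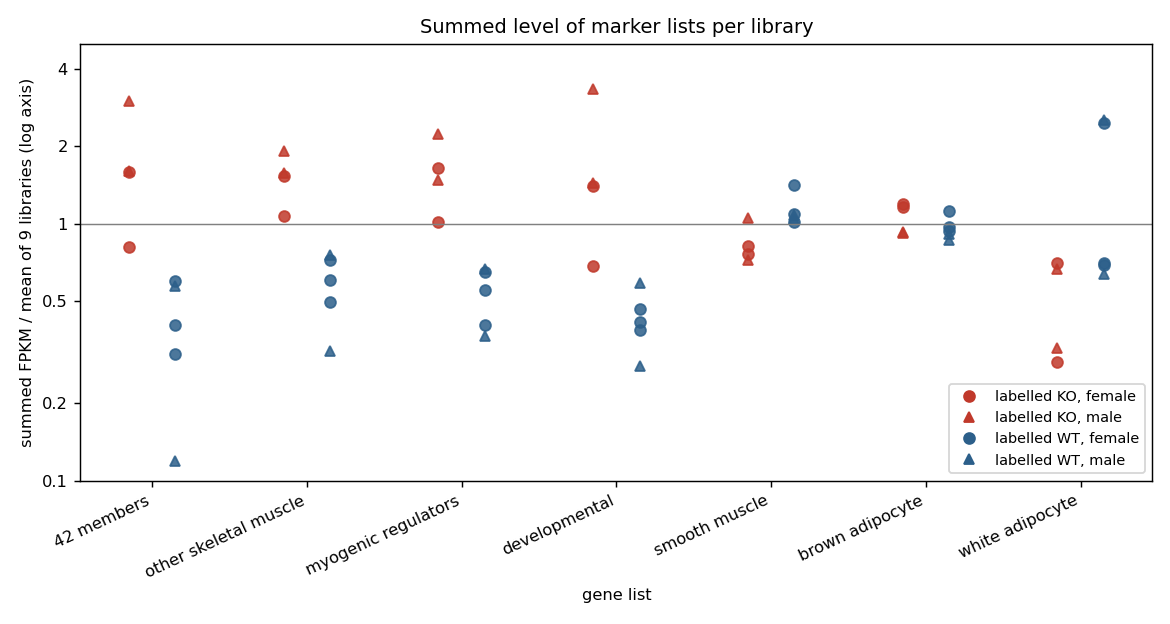
Summed FPKM of the 42 genes and of 6 further marker lists in each library, divided by the mean of the 9 libraries and shown on a log axis, with circles for females, triangles for males, red for libraries labelled KO and blue for libraries labelled WT. The skeletal muscle, myogenic regulator and developmental lists lie higher in the libraries labelled KO. The smooth muscle, brown adipocyte and white adipocyte lists overlap between the labels, with lower smooth muscle and white adipocyte means in KO.

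Some members share sequence with other genes, and how the authors' counting treated such fragments is not given in the sources used here. Of the stretches of 50 bases in their transcripts, *Myh1* shared 30.5%, *Myh2* 28.9% and *Myh4* 18.9% with another gene, mostly among the adjacent fast heavy chain genes of chromosome 11 (*Myh2* at chr11:67171027-67197517, *Myh1* at chr11:67200052-67224575 and *Myh4* at chr11:67238029-67260446, plus strand, GRCm38). *Myh7* shared 21.2% with *Myh6*. *Tnnc2* shared 55.0% with *Ube2c*, *Mb* 24.9% with other genes and *Atp2a1* 17.9% with *Rabep2*. Values of these genes, and the shares formed from them, carry that uncertainty. Of the slow genes, *Tnni1*, *Tnnt1* and *Tnnc1* shared 0%, *Myl2* 1.06%, *Myl3* 4.19% and *Myh7* 26.9% with any other gene. The effect of shared sequence on the slow shares was not tested.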

How the data were processed

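RNA-seq of brown adipose tissue from 9 mice was taken from the tables the authors deposited, 1 per library, which hold FPKM per gene symbol. Per the labels, poly A RNA was sequenced paired-end (HiSeq2000 and HiSeq2500 are both named), with bcl2fastq 1.8.4, TopHat2 2.0.11 on mm10 (GRCm38) and Bowtie. The annotation and fragment counts are not given in the sources used here, so depth is known only in relative terms, from values of 0.001 to 0.15 FPKM. FPKM are relative to all transcripts of a library.

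Groups follow the genotype and sex labels. The members and gene lists were chosen with earlier results of these data known, and so no test over a list is given. Log2 FPKM without pseudocount or further scaling was fitted with limma 3.58.1 (R 4.3.3), with a mean per group and a mean-variance trend, for the 14675 genes above 0 in all 9 libraries, and two-sided p-values were Benjamini-Hochberg adjusted over them at 0.05. Of these, 46 genes hold a value under 1e-06 FPKM in some library, and their log2 differences can be extreme. The code was tested on simulated data. Genes given in every library are *Acta1*, *Ckm*, *Myh1*, *Myh2*, *Myh4*, *Myh7*, the 6 fast and slow troponins, *Atp2a1*, *Ryr1*, *Pvalb*, *Sln*, *Mb*, *Eno3*, *Des*, all called members and the 3 members with the highest and the 3 with the lowest difference. From each other list the 3 genes with the lowest p are named, and 1 further list is not reported here. Alternatives changed the pseudocount (0.1 or 1), the filter (none, or a mean of at least 1 FPKM), the scaling (median centring, quantile), the model (an ordinary linear model, no trend, no interaction) and the libraries. Gene positions and transcripts came from GENCODE (GRCm38), upstream sequences from RefSeq (GRCm38.p6). Python 3.11.15, pandas 2.3.3, numpy 2.4.6 and matplotlib 3.10.9 were used.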

Additional observations from a re-analysis of the deposited data

Results flagged for a closer look

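In groups of 4 and 5 libraries, the highest and the lowest library were compared with the rest for each member and for the summed measures. Of 96 such tests 7 marked a library far from the others, where chance marks about 1 in 20 groups. Member levels entered as log2 FPKM. Many members rise and fall together across libraries, so the tests are not independent. WT male 2 was far below the other libraries labelled WT for 4 slow genes and for desmin. *Myl2* was at 0.222 FPKM there against 5.96 to 19.6 FPKM in the other libraries labelled WT, *Myl3* at 0.0950 against 1.37 to 3.73, *Tnnt1* at 0.252 against 6.42 to 17.9 and *Tnni1* at 0.0400 against 2.17 to 8.04. *Des* was at 21.5 FPKM in WT male 2 against 43.4 to 56.5 FPKM.

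KO female 2 was far from the other libraries labelled KO in 2 measures. *Tcap*, the titin cap protein of the Z-disc, was at 183.7 FPKM there against 242.6 to 251.6 FPKM. The slow list made up 16.9% of the fast and slow lists together in KO female 2 against 0.104% to 2.96% in the others.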

How the results depend on the processing

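The number of members higher in libraries labelled KO was 10, with 529 of 14675 genes called in either direction. It moved to 6 with a pseudocount of 0.1 (508 genes called), 0 with that pseudocount and no filter (170 of 18933), 18 with a mean of at least 1 FPKM (640 of 10877), 4 with median centring (222), 4 without the interaction term (402), 0 without the limma trend (34), and 0 adjusted (19) or 6 at an unadjusted p under 0.01 (1107) in an ordinary linear model. When single libraries were left out it ran from 0 to 38, with 8 to 1105 genes called, the 38 without WT male 1 (816). It was 0 (53 genes called) without KO male 1 and KO female 2 together, an alternative chosen after seeing the data. In males, where 2 genes were called, it ran from 0 to 31 without single libraries (0 to 1293 genes called) and was 5 in the linear model at an unadjusted p under 0.01 (777). The cause was not tested. In the other comparisons it stayed at 0 under all alternatives run. The log2 differences of the members kept their sign in all but 1 of 840 refits, *Sln*, which ran from -0.24 (without WT male 2, adjusted p 0.954) to 3.01 (without WT male 1) when single libraries were left out, and 133 lost and 49 gained the call. The ratio of summed FPKM ran from 3.33 to 5.14 without single libraries. The difference in fast heavy chain share was -3.67 percentage points (KO minus WT) and from -5.49 to 0.02 without single libraries, the last without KO female 2. No paired analysis was possible because the labels carry animal numbers, and no number is shared between groups.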

Other observations

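Further muscle genes, chosen after their values were seen, had a low level in KO male 1 like the slow list. *Csrp3*, *Ankrd2* and *Myoz2* encode Z-disc and stress-sensing proteins that slow fibres make in greater amounts. *Csrp3* was at 8.07 FPKM in KO male 1 against 20.8 to 30.4 FPKM in the other libraries labelled KO, and the level of *Ankrd2* was 6.998 against 11.8 to 23.4 FPKM. For *Myoz2* it was 3.99 FPKM against 9.62 to 15.02 FPKM.

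KO male 1 was high in a gene of another kind, also chosen after its values were seen. *Actc1*, the cardiac actin that developing muscle makes, was at 23.5 FPKM there and at 0.940 to 5.03 FPKM in the other libraries labelled KO. The satellite cell gene *Pax7* was low in all libraries, at 0.0200 to 0.0305 FPKM in KO and 0 to 0.00932 FPKM in WT.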
